A study of Mus musculus with 18 samples.

Results

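Etv2, Kdr, Flt1, Tek, Cdh5, Pecam1, Cldn5, Sox18 and Lyve1 are regulators, receptors and surface proteins of endothelial cells. They were taken by symbol, as 9 of the 31053 mouse genes counted in every library. The data come from whole mouse embryos at E8.5, profiled with the 10x Genomics 3' v3 chemistry, in 18 libraries described as a single embryo each. All embryos carry the strain background label 129S4/SvJae. There were 7 wild-type (WT) libraries, 3 labelled Dnmt1 null (Dnmt1 KO), 4 labelled Dnmt3a null (Dnmt3a KO) and 4 labelled Dnmt3b null (Dnmt3b KO). The mutations were inherited from heterozygous parents and so were present in every tissue of a KO embryo, not in its endothelium alone.

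Endothelial cells of the early embryo arise from mesoderm of the yolk sac, allantois and embryo proper, and assemble into the first vessels. The ETS factor Etv2 starts the programme, the VEGF receptor Kdr marks the mesoderm that can respond to VEGF, and junction proteins, further receptors and SOX factors follow as the vessels mature. Dnmt1 copies DNA methylation onto newly replicated strands, and Dnmt3a and Dnmt3b add it to unmethylated DNA. The question put to these 9 genes was where in the E8.5 embryo each was transcribed, and whether its level in endothelial and other cells differed when one of the methyltransferases was missing.

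Positions are those of the GENCODE annotation on mm10. Etv2, the ETS transcription factor at the head of the endothelial and blood programme, lies on chromosome 7 from 30633616 to 30635852. Sox18, a SOX factor of vessel and lymphatic differentiation, lies on chromosome 2 from 181669836 to 181671640. Kdr encodes the main signalling receptor for VEGF-A and spans 75932827 to 75978458 on chromosome 5. Flt1, a high-affinity VEGF receptor that also acts as a decoy, lies on the same chromosome from 147561604 to 147726011. Tek encodes Tie2, the receptor for angiopoietins, and spans 94739289 to 94874976 on chromosome 4. Cdh5 encodes VE-cadherin of the adherens junctions and lies on chromosome 8 from 104101625 to 104144511. Pecam1 encodes the adhesion molecule CD31 and lies on chromosome 11 from 106654217 to 106750628. Cldn5 encodes the tight-junction protein claudin 5 and lies on chromosome 16 from 18776847 to 18778262. Lyve1 encodes a hyaluronan receptor that is best known from lymphatic endothelium and some macrophages and that is also found in early yolk sac vessels. It lies on chromosome 7 from 110850607 to 110863239.

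Promoter sequence could be matched for 5 of the 9 genes (Etv2, Kdr, Flt1, Tek and Cldn5), from RefSeq on GRCm38.p6. The 250 bases before the start of Etv2 and of Cldn5 are printed, because these were the members with the most and the fewest copies of the ETS core GGAA, counted on both strands. In the Etv2 sequence the capitals mark GGAA or its reverse complement TTCC, which occurred 10 times. Among 32841 mouse promoter windows of the same length, 93.5% held at least 1 copy, the median was 3, and 0.192% held at least as many as Etv2. The Cldn5 window held 0 copies. Its capitals mark CG, the dinucleotide that the methyltransferases act on, of which there were 12 against 3 before Etv2, 16 before Kdr, 23 before Flt1, 2 before Tek and a median of 6 over all windows. These matches describe the letters only.
Etv2 promoter, chr7:30635853-30636102, minus strand: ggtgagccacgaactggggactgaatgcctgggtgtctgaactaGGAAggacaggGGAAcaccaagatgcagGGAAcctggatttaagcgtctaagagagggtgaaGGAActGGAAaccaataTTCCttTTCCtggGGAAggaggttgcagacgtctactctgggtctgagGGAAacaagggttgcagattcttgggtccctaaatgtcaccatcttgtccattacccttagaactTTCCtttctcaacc
Cldn5 promoter, chr16:18776597-18776846, plus strand: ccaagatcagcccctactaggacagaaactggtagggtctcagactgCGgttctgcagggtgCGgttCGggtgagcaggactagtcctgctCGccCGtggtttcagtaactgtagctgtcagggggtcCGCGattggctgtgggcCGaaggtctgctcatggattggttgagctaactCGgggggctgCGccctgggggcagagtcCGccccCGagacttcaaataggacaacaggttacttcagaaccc

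Of 162336 barcodes, 128881 held at least 1500 mouse UMIs (unique molecular identifiers, the counted transcripts), and 109962 were kept after filters on mitochondrial and ribosomal share and removal of 7924 doublets. A library kept 1366 to 12716 cells with 36516346 to 234638944 UMIs, and a median of 4463.5 to 59714 UMIs per cell. Levels are given in CPM, the UMIs of a gene in the summed cells of an embryo scaled to 1000000. Cells with more UMIs therefore weigh more in a level. The libraries Dnmt3b KO 1 and Dnmt3b KO 2 shared 12249 barcodes, whereas no other pair of the 153 shared more than 133, so they were counted as 1 sample, which gives Dnmt3b KO n = 3. Their counts were summed for the tests across genes, and their levels and shares were averaged. Of 9149 shared barcodes with at least 1500 UMIs in both, 4852 held more UMIs in the first library by over 0.5 on the log2 scale, 4255 more in the second by as much, and 42 lay between. Whether they are 1 embryo or 2 was not settled. Dnmt1 was at 14.9 to 15.7 CPM in the Dnmt1 KO embryos against 83.3 to 116 in WT, and Dnmt3a was at 7.35 to 11.7 CPM in Dnmt3a KO against 23.1 to 34.97 in WT. Dnmt3b was not lower in Dnmt3b KO (54.3 to 68.4 CPM in the 4 libraries, against 35.4 to 87.2 in WT), and it was Dnmt3a that was low in the library labelled Dnmt3b KO 11 (15.1 CPM) and in the one labelled Dnmt3b KO 12 (7.55 CPM). The 3' reads count transcript ends, so a transcript that keeps its end is counted whether or not it is functional. Y-linked transcripts were present in every Dnmt1 KO and Dnmt3a KO library but among WT in WT 2 alone, apart from a trace in WT 7, and in 3 of the 4 Dnmt3b KO libraries, so sex differs between the groups. All embryos were collected at the same age, and a difference in developmental stage between Dnmt1 KO and WT cannot be told apart from an effect of the genotype.

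Cells were clustered without the 9 genes, and a cluster was called endothelial from Egfl7, Emcn, Esam, Icam2, Ramp2, Cd34, Rasip1, Ecscr, Plvap, Cd93 and Myct1. This gave 5384 endothelial cells, of which 2082 came from WT, 388 from Dnmt1 KO, 1630 from Dnmt3a KO and 1284 from Dnmt3b KO, with 57 to 658 cells and 1131065 to 10630007 UMIs per library. In all totals of cells, a barcode shared by Dnmt3b KO 1 and 2 counts in each library that kept it. All 11 markers were detected in the endothelial cells of every library, none being at 0. Their summed level was 2292 to 3473 CPM in WT, 2304 to 3315 in Dnmt3a KO and 2701 to 3682 in Dnmt3b KO, but 1196 to 1746 in Dnmt1 KO, below every WT embryo. Markers of other cell types within the class also differed in Dnmt1 KO. The 7 megakaryocyte markers summed to 72.1 to 85.2 CPM against 21.2 to 45.9 in WT, with 3 of them (Gp9, Gp1bb and Ppbp) at 0 in each Dnmt1 KO embryo and 1 to 4 at 0 in WT, and the cardiomyocyte markers summed to 208 to 289 CPM against 41.0 to 206. Erythroid markers overlapped between Dnmt1 KO (59.6 to 293 CPM) and WT (32.7 to 1757). The part of these differences in the results on Dnmt1 KO was not tested. Cells that fitted no class made up 14.4% ± 2.05 (SD, n = 7) of WT and 20.6% ± 14.8 (SD, n = 3) of Dnmt1 KO.

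In WT embryos each of the 9 genes was highest in endothelial cells among the 14 cell classes profiled, but they differed in how far they were restricted to them. Cldn5, Cdh5, Lyve1 and Sox18 were the most restricted. The endothelium, 5.63% ± 1.93 (SD, n = 7) of the cells, held 93.9% ± 1.24 of all Cldn5 UMIs, 93.3% ± 1.92 of Cdh5, 92.8% ± 1.21 of Lyve1 and 89.5% ± 3.29 of Sox18. The next class in order lay at 1.94 ± 3.35 CPM for Cldn5 (somitic mesoderm), 0.906 ± 1.94 for Cdh5 (extraembryonic mesoderm), 0.947 ± 0.980 for Lyve1 (neural crest, n = 6) and 1.83 ± 1.55 for Sox18 (somitic mesoderm), and none of these overlapped the endothelial values. Outside the 14 classes, 67 immune-like WT cells, too few to profile by embryo, held Cdh5 at 162 CPM, Lyve1 at 147, Sox18 at 73.4 and Cldn5 at 43.3 CPM, pooled over embryos.

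The other 5 genes were less restricted. Among the classes profiled by embryo the next of each by level was mesodermal, with Pecam1 nearly as high in erythroid cells. The 67 immune-like WT cells, not profiled by embryo, held Kdr at 120.4 CPM, Pecam1 at 72.3 and Flt1 at 58.1. These pooled values lay above the mean of the gene's next class, whereas Tek at 41.2 CPM and Etv2 at 34.8 lay below it. The endothelium held 68.5% ± 5.66 of Pecam1 UMIs, 64.7% ± 6.93 of Flt1, 55.0% ± 5.87 of Kdr, 44.0% ± 9.64 of Tek and 42.3% ± 14.1 of Etv2 (SD, n = 7 embryos). The early factor Etv2 and the receptor Kdr had the allantois as their next class. Etv2 was at 213 ± 89.0 CPM in endothelium and at 101 ± 67.3 CPM in the allantois (n = 6), and the embryos of both overlapped. Kdr was at 351 ± 63.8 CPM in endothelium and 58.4 ± 24.2 CPM in the allantois, without overlap, and it did not separate the allantois from mesenchyme (22.3 ± 10.5 CPM). Flt1, Tek and Pecam1 instead had the extraembryonic mesoderm of the yolk sac and amnion as their next class. Flt1 was at 172 ± 29.9 CPM in endothelium, 53.9 ± 20.2 in extraembryonic mesoderm and 10.7 ± 3.96 in gut, each step without overlap. Tek was at 73.7 ± 12.2 CPM in endothelium and 54.8 ± 11.96 in extraembryonic mesoderm, where the ranges overlapped, and at 4.51 ± 1.68 CPM in erythroid cells below both. Pecam1 was at 112 ± 21.7 CPM in endothelium against 10.8 ± 5.38 in extraembryonic mesoderm and 8.10 ± 3.75 in erythroid cells, the last of which overlapped each other. Of these, erythroid cells were the larger class, at 11.6% ± 6.97 of WT cells against 3.14% ± 0.883 for extraembryonic mesoderm (SD, n = 7).

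**Figure D1:**
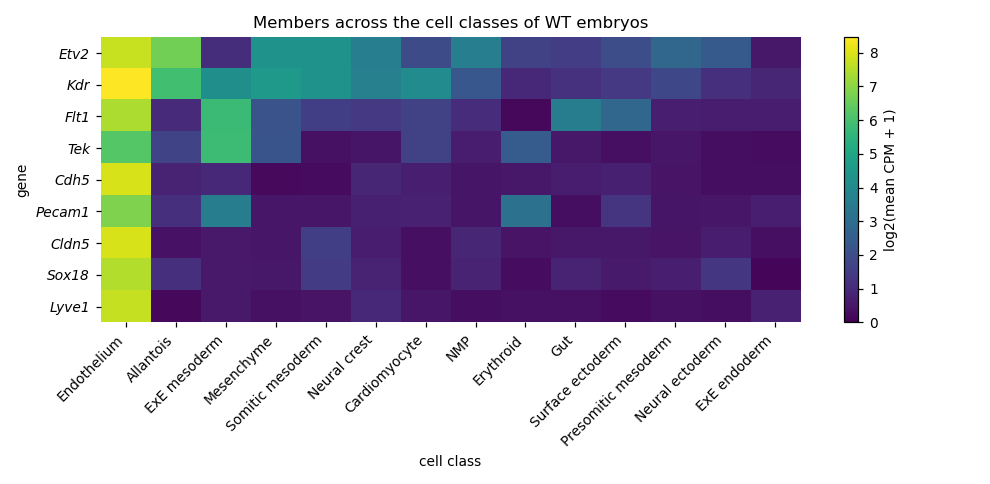
Mean level of the 9 genes in the 14 cell classes of WT embryos (colour, log2 of mean CPM + 1; rows are genes, columns are classes, up to 7 embryos each). Cldn5, Cdh5, Lyve1 and Sox18 are bright in the endothelium alone, Etv2 and Kdr extend to the allantois, and Flt1 and Tek to extraembryonic mesoderm.

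Across those 14 classes the genes fell in the same pattern when each was correlated with every other gene of at least 5 CPM (Pearson's r of log2 CPM, 11772 genes). These correlations describe classes drawn from the same libraries, most of them near 0 for several genes, and carry no test. Lyve1 was most like Tie1, the orphan receptor that partners Tek (r = 0.997), then Gpr182 and Lcp2. Cdh5 was most like Gimap4 (r = 0.994), Cldn5 like Gm17745 (r = 0.996) and Sox18 like Shank3 (r = 0.989). Pecam1 was nearest to the endothelial secreted protein Egfl7, a marker used to name the class (r = 0.935), Flt1 to Plk2 (r = 0.933), Kdr to Fhl3 (r = 0.912), Tek to Ssna1 (r = 0.906) and Etv2 to Bud31 (r = 0.901). Among the members themselves Lyve1 and Cdh5 were most alike (r = 0.990) and Etv2 and Flt1 least (r = 0.308).

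Within part of the WT endothelium the members marked 2 kinds of cell that were separated without them. Cluster 40, led by Gadd45g and Egfl7, held 15.5% of WT endothelial cells, and cluster 29, led by Plvap, Ramp2 and Emcn, held 32.2%. Both were deeply sequenced, with a median of 39328 and 34228.5 UMIs per cell. A further 51.8% sat in cluster 17, whose cells were shallow, with a median of 3330 UMIs. There Kdr was at 76.5 ± 14.3 CPM, Cdh5 at 86.5 ± 37.6 and Pecam1 at 65.8 ± 19.1. Flt1 was at 55.2 ± 20.9 CPM and Tek at 28.7 ± 9.59. These 5 means lay below those of both other clusters. Etv2 was at 137 ± 47.9 CPM and Lyve1 at 189 ± 125, so cluster 17 matched neither kind. Because the cells were grouped by their expression, the values by cluster are a description without a test.

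Etv2 and Kdr were higher in cluster 40, and Lyve1, Cdh5 and Flt1 were higher in cluster 29. Etv2 was at 474 ± 191 CPM in cluster 40 (n = 6 embryos with at least 10 cells, from 263 to 831) and at 120.0 ± 55.8 CPM in cluster 29 (n = 7, from 41.6 to 181). Kdr was at 469 ± 53.7 CPM against 348 ± 49.0. Lyve1 was almost missing from cluster 40, at 3.94 ± 2.42 CPM (from 1.02 to 7.27), and was at 301 ± 151 CPM in cluster 29 (from 99.6 to 513). Every WT embryo with both clusters had less Etv2 and more Lyve1 in cluster 29. Cdh5 was at 103 ± 41.5 CPM in cluster 40 and 330.1 ± 38.8 in cluster 29, and Flt1 was at 80.9 ± 15.1 and 231 ± 31.9 CPM, neither pair of ranges overlapping. Smaller steps in the same direction were seen for Tek (59.0 ± 14.3 and 85.7 ± 12.4 CPM), Pecam1 (79.7 ± 21.3 and 134 ± 21.99) and Cldn5 (181 ± 68.1 and 288 ± 64.8). Sox18 did not separate the clusters, at 183 ± 43.5 and 179 ± 42.1 CPM. Dnmt3a KO and Dnmt3b KO embryos had the same 2 clusters, with Lyve1 at 2.52 and 3.52 CPM in cluster 40 and at 333 and 317 CPM in cluster 29.

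**Figure D2:**
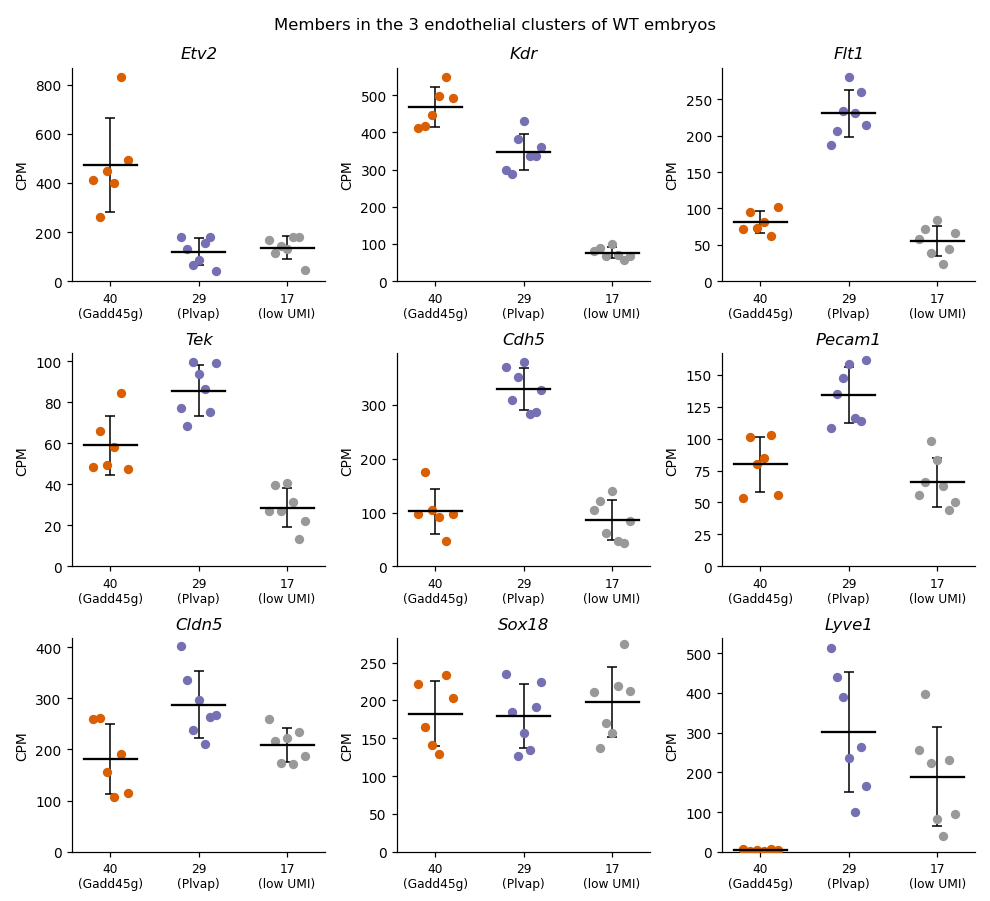
CPM (y axis) of each member in the 3 endothelial clusters of WT embryos (x axis), with a point per embryo, a horizontal line for the mean and bars for 1 SD. Etv2 and Kdr sit higher in cluster 40, Lyve1, Cdh5 and Flt1 higher in cluster 29, and the Sox18 points of all 3 overlap.

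Loss of Dnmt1 was accompanied by lower Lyve1 and Sox18 in endothelial cells. Lyve1 reached 12.8, 16.0 and 13.1 CPM in the 3 Dnmt1 KO embryos, against 66.3 to 371 CPM (median 173) in the 7 WT embryos. The 2 groups did not overlap, and the Dnmt1 KO embryos lay close together (13.95 ± 1.79 CPM) whereas WT spread widely (210.2 ± 105). Lyve1 was 14.1-fold lower (log2 fold change -3.82, SE 0.50, adjusted p = 9.5e-06 in edgeR's quasi-likelihood test over 12117 genes). Sox18 reached 71.5, 48.9 and 48.1 CPM against 133 to 229 CPM (median 172) in WT, again without overlap. It was 2.95-fold lower (log2 fold change -1.56, SE 0.21, adjusted p = 1.5e-05). Calls needed an adjusted p below 0.01 together with a change of 1 or more on the log2 scale. By that rule 2 of the 9 members were called, both lower, where 5.5% of all genes tested were called lower and 10.2% were called in either direction.

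Claudin 5 came next. Cldn5 was at 163, 155 and 93.8 CPM in Dnmt1 KO and at 201 to 354 CPM (median 230.0) in WT, so that the groups did not overlap, but its log2 fold change of -0.74 (SE 0.20, adjusted p = 0.0071) was under the size required. Flt1 was at 132, 122 and 86.3 CPM against 126 to 206 in WT, with a single KO embryo inside the WT range (log2 fold change -0.48, SE 0.15, adjusted p = 0.019). Cdh5 was at 199, 189 and 132 CPM against 190.1 to 298 (log2 fold change -0.39, SE 0.16, adjusted p = 0.068). Etv2 was at 157, 103 and 138 CPM, inside the wide WT range of 72.3 to 348 (log2 fold change -0.54, SE 0.30, adjusted p = 0.19). The receptors Kdr and Tek and the adhesion gene Pecam1 showed no difference that passed the test. Kdr was at 457, 423 and 321 CPM against 247 to 438 (log2 fold change 0.31, SE 0.14, adjusted p = 0.11), and the log2 fold changes were -0.12 (SE 0.14) for Tek and 0.02 (SE 0.16) for Pecam1. The median log2 fold change was -0.48 over the 9 members and 0.00052 over all genes tested. The endothelial markers that named the class were lower too, at a summed 1517 ± 286 CPM in Dnmt1 KO against 2772 ± 466 in WT. Whether the members fell more than such endothelial genes was not tested.

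**Figure D3:**
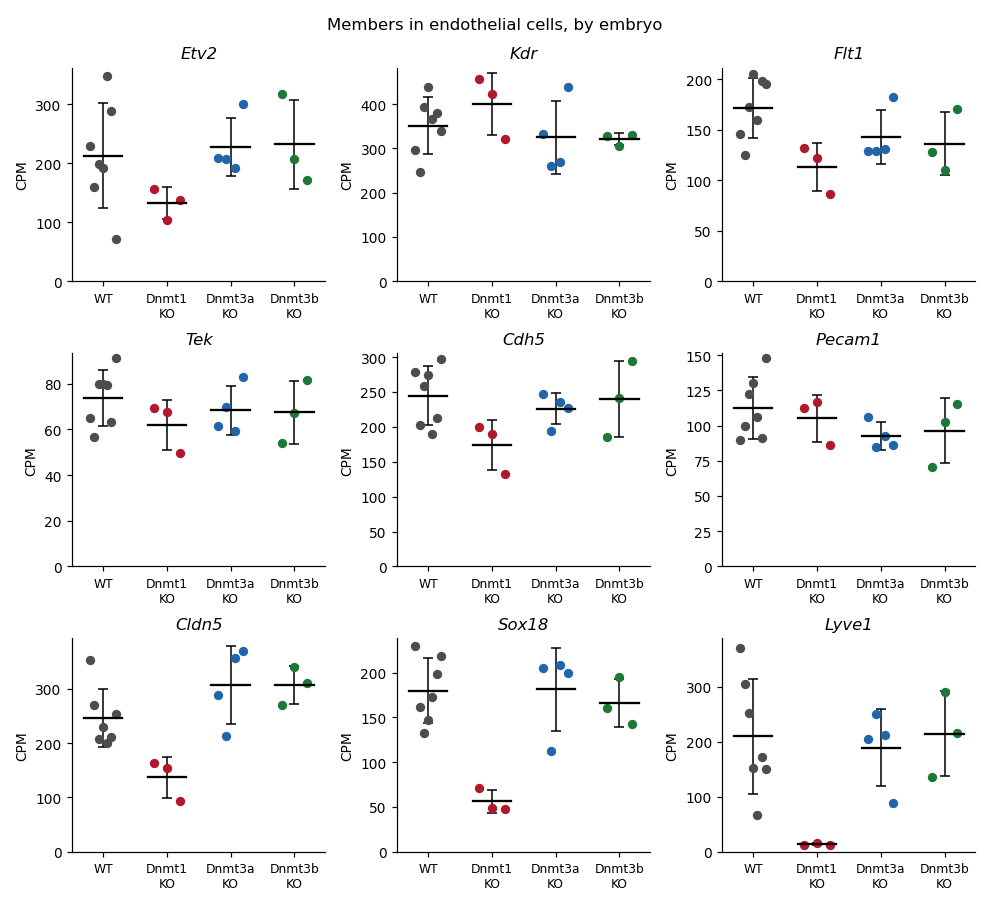
CPM (y axis) of each member in the endothelial cells of every embryo, by group (x axis), with a line for the mean and bars for 1 SD; Dnmt3b KO 1 and 2 are a single point, pooled by their counts. The 3 Dnmt1 KO points lie below every WT embryo for Lyve1, Sox18 and Cldn5. Every Dnmt3a KO and Dnmt3b KO point lies inside the WT range for Etv2 and Lyve1, and at least 1 lies outside it for the other genes.

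Outside cluster 17, most endothelial cells of Dnmt1 KO embryos lay in other clusters than those of WT, with 4 of them in cluster 29 and 1 in cluster 40, so the levels were also set side by side within cluster 17. This shallow cluster took 47.7% of Dnmt1 KO and 51.8% of WT endothelial cells, with a median of 3216 and 3330 UMIs. In it Lyve1 was at 5.41 ± 4.94 CPM (n = 3) in Dnmt1 KO and 189 ± 125 in WT (log2 fold change -4.89, adjusted p = 0.00021, in an edgeR fit added after the data had been seen). In the 3 Dnmt1 KO embryos, with 185 such cells in all, Lyve1 was at 0, 6.57 and 9.67 CPM, so its counts were near the floor. Sox18 was at 104 ± 68.9 and 198 ± 46.3 CPM there, and its difference was no longer called (log2 fold change -0.99, adjusted p = 0.055). The Dnmt1 KO embryos were at 62.9, 65.7 and 184 CPM, so this mean leans on 1 embryo. Cldn5 was at 83.6 ± 5.63 and 209 ± 33.2 CPM, and was called in this cluster (log2 fold change -1.22). Of the deeply sequenced Dnmt1 KO cells, 42 formed cluster 108, which like WT cluster 40 had high Etv2 (342 ± 55.7 CPM) and little Lyve1 (2.52 ± 2.25). Another 49 formed cluster 110, where Cdh5 (288 ± 23.8 CPM, n = 2 embryos) and Kdr (567 ± 67.6) were high, Etv2 was low (51.5 ± 3.34), and yet Lyve1 was at 20.4 ± 0.853 CPM and Sox18 at 84.3 ± 16.2. In clusters 107 and 109 Lyve1 was at 21.2 and 10.4 CPM and Sox18 at 54.6 and 16.6.

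The shares of cells with a UMI were read beside the levels. After every cell was thinned to 3000 UMIs, leaving out 498 shallower WT cells and 87 of Dnmt1 KO, 20.4% ± 10.4 of WT endothelial cells (n = 7) and 2.66% ± 0.925 of those of Dnmt1 KO (n = 3) held a Lyve1 UMI. Unthinned the shares were 31.5% ± 11.7 and 16.6% ± 8.89, with median depths of 3809.5 to 33200.5 UMIs per WT library and 3450.5 to 50595 per Dnmt1 KO library. For Sox18 the thinned shares were 37.7% ± 7.06 and 19.4% ± 5.999. Kdr was found in 51.0% ± 10.8 and 55.5% ± 19.7 of the thinned cells. For Etv2, whose log2 fold change in level of -0.54 was not called, the shares were 26.3% ± 8.83 in WT and 30.2% ± 7.60 in Dnmt1 KO, with overlap. In neural ectoderm, taken as a background, the thinned shares in WT were 0.0256% ± 0.0677 for Lyve1, 0.388% ± 0.330 for Sox18 and 0.290% ± 0.216 for Kdr, at median depths of 5173 to 59205.5 UMIs. The share there was highest for Etv2, at 1.12% ± 0.298.

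Sums over all cells of the embryo showed the same 2 genes. These sums contain the endothelial cells, so they are not a separate result. In WT those cells held 92.8% of Lyve1 and 89.5% of Sox18 UMIs, and in Dnmt1 KO 74.8% and 82.0%. Lyve1 was at 0.651 to 0.763 CPM in the Dnmt1 KO embryos and 2.19 to 14.9 in WT (log2 fold change -3.68, SE 0.62, adjusted p = 0.00019), and Sox18 was at 1.89 to 3.37 CPM against 5.64 to 9.39 (log2 fold change -1.49, SE 0.25, adjusted p = 0.00021). These 2 of 9 members stood against 6.11% of genes called lower over the whole embryo. The other 7 had log2 fold changes from -0.68 (Cldn5) to 0.31 (Tek). In such sums fewer cells of a type and less RNA per cell cannot be told apart. The share of endothelial cells was 5.19%, 3.93% and 7.53% in the Dnmt1 KO embryos (mean 5.55% ± 1.83) and 5.63% ± 1.93 in WT. The difference in log2 share was -0.0053 (adjusted p = 0.99, exact two-sided permutation test over 120 splits, whose smallest possible p is 0.0083), and it ran from -0.25 to 0.22 when single embryos were left out.

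The members were not called in either of the other mutants. In Dnmt3a KO endothelium 0 of 9 passed edgeR's test, with 1 at an unadjusted p under 0.05 and 0 in DESeq2, where 0.0825% of all genes were called. In Dnmt3b KO it was again 0 of 9, with 1 at an unadjusted p under 0.05 and 0 in DESeq2, where 0.735% of all genes were called. The gene under that unadjusted limit was Flt1 in both, at 129, 129, 131 and 183 CPM in the 4 Dnmt3a KO embryos (log2 fold change -0.29, SE 0.13, adjusted p = 0.78) and at 171, 128 and 110.3 CPM in the 3 Dnmt3b KO samples (log2 fold change -0.36, SE 0.15, adjusted p = 0.35), against 126 to 206 in WT. Both comparisons share the WT embryos. The counts at the unadjusted limit were not set against those of all genes. Lyve1 was at 206, 251, 212 and 88.0 CPM in Dnmt3a KO and at 216, 137 and 291 CPM in Dnmt3b KO, all inside the WT range, with log2 fold changes of -0.18 (SE 0.34) and -0.04 (SE 0.37). Sox18 was at 206, 112, 209 and 199.6 CPM in Dnmt3a KO and at 142, 161 and 195 CPM in Dnmt3b KO (log2 fold changes 0.00 with SE 0.17 and -0.14 with SE 0.19). Cldn5 averaged 307 ± 72.3 and 307 ± 35.6 CPM, with log2 fold changes of 0.29 (SE 0.17) and 0.28 (SE 0.18). The 9 log2 fold changes of Dnmt3a KO lay between -0.29 and 0.29, and those of Dnmt3b KO between -0.36 and 0.28. With simulated counts at these group sizes, 98% of genes changed 4-fold and 52% of those changed 2-fold were called in the Dnmt3a KO comparison, and 99% and 55% in that of Dnmt3b KO. The changed genes were drawn from those well detected in WT endothelium, so these rates do not cover genes at low levels. They are averages over genes of different spread.

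Over the whole embryo 0 of 9 members were called in Dnmt3a KO, where 0.224% of all genes were called, and 0 of 9 in Dnmt3b KO, where 1.8% were. At an unadjusted p under 0.05 in edgeR there was 1 in Dnmt3a KO and 0 in Dnmt3b KO, and DESeq2 called 0 in both. These counts too were not set against those of all genes. The gene at the unadjusted limit in Dnmt3a KO was Tek, at 8.13 to 9.55 CPM against 5.06 to 7.56 in WT, without overlap (log2 fold change 0.40, SE 0.15, adjusted p = 0.35). The share of endothelial cells in Dnmt3a KO was 5.00% ± 0.866 (n = 4). That of Dnmt3b KO was 3.89% ± 0.403 (n = 3). The differences in log2 share from WT were -0.13 (adjusted p = 0.95) and -0.48 (adjusted p = 0.33, both exact two-sided permutation tests). With Dnmt3b KO 11 and 12, the libraries low in Dnmt3a, left out, no member was called in Dnmt3b KO either. In that fit Dnmt3b KO 1 and 2 entered as separate libraries although they share barcodes, so their spread may not be one between embryos.

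**Figure D4:**
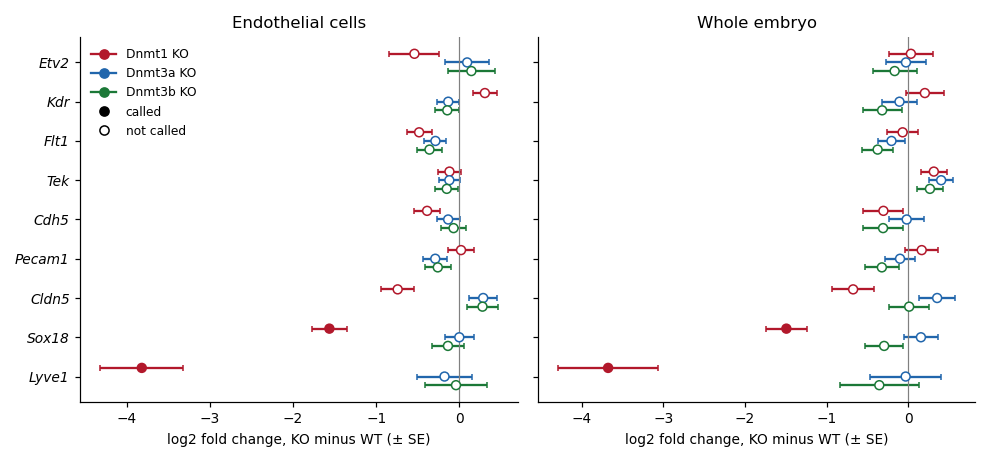
Log2 fold change of each member (x axis, KO minus WT, bars are 1 SE) in endothelial cells (left) and in sums over the whole embryo (right), coloured by KO group; filled points were called. Lyve1 and Sox18 in Dnmt1 KO are the only filled points, on both sides.

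Other genes of the same pathways were read from a list of 42, of which 40 could be tested in endothelium. In Dnmt1 KO 14 were called, beside 10.2% of all genes in either direction. Of these 13 were lower, beside 5.5% of all genes, and 1 was higher. The median log2 fold change was -0.73, in a class whose naming markers were also lower. In Dnmt3a KO it was 0 of 40, where 0.0825% of all genes were called, and in Dnmt3b KO 0 of 40, where 0.735% were. At an unadjusted p under 0.05 in edgeR there were 2 in Dnmt3a KO and 5 in Dnmt3b KO, and DESeq2 called 0 in both. The counts at the unadjusted limit were not set against those of all genes. The 14 fell to 9 with the Y-linked level as a covariate, to 9 without Dnmt1 KO 3, to 2 with all sums thinned to the smallest and to 1 in cluster 17 alone.

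Of the arterial genes 6 of 9 tested were called, all lower. Dll4, the Notch ligand of arterial cells, was at 4.92 ± 2.07 CPM in Dnmt1 KO and 23.3 ± 6.96 in WT (log2 fold change -2.12, SE 0.34, adjusted p = 9.5e-05). Jag1, another Notch ligand, was at 2.10 ± 0.345 and 23.4 ± 12.99 CPM (log2 fold change -3.31, SE 0.73). The Notch receptor Notch4 and the Notch target genes Hey1 and Hey2 fell by 2.45, 1.88 and 1.75 on the log2 scale, and the ephrin Efnb2 fell by 1.02. Without Dnmt1 KO 1 the log2 fold changes of Notch4 and Hey1 were -3.46 and -2.53. Without any single Dnmt1 KO embryo Jag1, Hey2 and Efnb2 missed the threshold (adjusted p from 0.010 to 0.051), and so did Efnb2 without WT 1 or WT 4. Gja5, which encodes an arterial connexin, was at 4.18 ± 3.88 CPM in WT and at 0 in the 3 Dnmt1 KO embryos, and was not called (adjusted p = 0.013). The receptor Notch1 was at 60.9 ± 12.05 CPM against 77.4 ± 16.8 and was not called. Of the VEGF ligands 1 of 3 tested was called, Vegfc, the ligand of the lymphatic receptor Flt4, at 2.001 ± 1.23 CPM against 14.2 ± 2.38 (log2 fold change -2.84, SE 0.30, adjusted p = 6.1e-07). Of the VEGF receptors and co-receptors 1 of 3 was called, the neuropilin Nrp2 (log2 fold change -1.13).

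Of the venous and lymphatic genes 1 of 4 was called, Nr2f2, the venous factor COUP-TFII, at 10.1 ± 2.95 CPM against 40.1 ± 12.9 (log2 fold change -1.84, SE 0.36). None of the 4 angiopoietin and Tie genes was called by edgeR, with 1 of them, Tie1, at an unadjusted p under 0.05 and 0 called in DESeq2. Of 12 endothelial and haemato-endothelial transcription factors 3 were called. Sox17, which like Sox18 belongs to the SoxF family, was at 37.5 ± 18.0 CPM against 96.8 ± 14.4 (log2 fold change -1.25, SE 0.20, adjusted p = 6.6e-05), and the ETS factor Elk3 was at 45.6 ± 7.09 against 104 ± 10.4 (log2 fold change -1.06). Without Dnmt1 KO 3 both missed the size required, at log2 fold changes of -0.99. Sox7, the remaining SoxF member, was at 34.8 ± 3.47 against 40.8 ± 5.26 CPM and was not called. Gata2, a factor of blood and endothelial progenitors, was the single gene that rose, at 75.7 ± 4.60 CPM against 31.0 ± 4.77 (log2 fold change 1.43, SE 0.12, adjusted p = 4.0e-08). Of 5 BMP, S1P and guidance receptors 2 were called, Plxnd1 (log2 fold change -1.54) and Robo4, at 0 to 1.72 CPM against 2.52 to 5.16 in WT (log2 fold change -2.10, adjusted p = 0.0060). Robo4 was not called without Dnmt1 KO 1 (-2.20), Dnmt1 KO 2 (-1.43), WT 1 (-2.04) or WT 4 (-1.97), and it was at -2.91 without Dnmt1 KO 3. In all, 9 of its 34 alternatives lost the call.

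Outside the endothelium the members could be compared in 4 classes of Dnmt1 KO, as 29 pairs of a gene and a class. Of these 7 were called, 6 higher and 1 lower, where 8.71% of all pairs of a gene and a class were called. DESeq2 called 8. In Dnmt3a KO 0 of 78 pairs in 13 classes were called, where 0.138% of all pairs were. Of the 78, 19 had an unadjusted p under 0.05 in edgeR and 0 were called in DESeq2. In Dnmt3b KO 0 of 67 pairs in 10 classes were called, where 0.8% of all pairs were. Of the 67, 11 had an unadjusted p under 0.05 in edgeR and 0 were called in DESeq2. The counts at the unadjusted limit were not set against those of all pairs. In the allantois, the next class of Etv2 and Kdr in WT, Etv2 was at 39.0 ± 22.9 CPM in Dnmt3a KO and 44.2 ± 15.5 in Dnmt3b KO against 101 ± 67.3 in WT (adjusted p = 0.33 and 0.44), and Kdr was at 32.3 ± 5.37 and 36.0 ± 7.65 CPM against 58.4 ± 24.2 (adjusted p = 0.29 and 0.43), all with overlap. The 7 calls in Dnmt1 KO fell to 3 when the cells were clustered at resolution 1 and to 1 when all sums were thinned, and they rose to 17 when each group was clustered on its own, which also gave 12 in Dnmt3a KO and 2 in Dnmt3b KO.

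In erythroid cells Etv2, Kdr and Cdh5 were higher in Dnmt1 KO, all at low levels, where 9.79% of genes were called. Kdr was at 7.67, 8.997 and 16.5 CPM against 0.720 to 1.36 in WT (log2 fold change 3.26, SE 0.34, adjusted p = 1.5e-06). Etv2 was at 6.71, 8.35 and 6.75 CPM against 0.884 to 3.98 (log2 fold change 1.65, SE 0.34, adjusted p = 0.00094). Cdh5 was at 2.24, 2.14 and 9.74 CPM against 0.0930 to 0.744 (log2 fold change 3.14, SE 0.54, adjusted p = 0.00022). No KO embryo overlapped WT for these 3 genes, and Dnmt1 KO 3 stood highest for Kdr and Cdh5. Without that embryo Cdh5 was not called (log2 fold change 2.12, adjusted p = 0.014), and without Dnmt1 KO 2 Etv2 was not (log2 fold change 1.52, adjusted p = 0.013). The class itself differed: 77.6% of the 304 Dnmt1 KO cells lay in cluster 13, which held 19.9% of WT erythroid cells. Its erythroid markers summed to 28587 to 42098 CPM against 57480 to 159974 in WT, the endothelial markers to 79.0 to 102 against 50.8 to 61.8, and the megakaryocyte markers to 54.7 to 74.8 against 20.8 to 35.3. Their part in the difference was not tested. Over the alternatives the log2 fold change of Cdh5 ran from 1.55 (clusters at Leiden resolution 1, where it was not called) to 4.08, that of Kdr from 2.37 to 3.78 and that of Etv2 from 1.32 to 2.42.

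In extraembryonic mesoderm, where 12.4% of genes were called, the early genes were higher and Flt1 lower. Etv2 was at 13.8, 25.96 and 33.3 CPM in Dnmt1 KO and at 0.327 to 1.77 in WT (log2 fold change 4.44, SE 0.52, adjusted p = 1.8e-06). Kdr was at 37.1, 42.9 and 38.8 CPM against 8.91 to 25.6 (log2 fold change 1.27, SE 0.22, adjusted p = 0.00014). Flt1 was at 11.004, 11.3 and 10.04 CPM against 25.4 to 84.8 (log2 fold change -2.22, SE 0.42, adjusted p = 0.00035). Tek, the other receptor of this tissue, was at 31.0 ± 10.5 CPM against 54.8 ± 11.96 and was under the size required (log2 fold change -0.71, SE 0.18, adjusted p = 0.0038). Here too the cells differed, since 88.9% of the Dnmt1 KO cells of the class lay in cluster 18, led by Tdo2 and Peg3, and WT cells in clusters 26 and 32. The 6 markers of extraembryonic mesoderm summed to 1159 to 1905 CPM in Dnmt1 KO and 4468 to 5168 in WT, those of the allantois to 266 to 298 against 126 to 239, and the endothelial markers to 105 to 121 against 149 to 215. The part of this shift in the 3 calls was not tested. Over 34 alternatives the log2 fold change of Etv2 ran from 2.55, with clusters made within groups, to 6.09, with the Y-linked level as a covariate, and that of Kdr from 0.97 to 2.27.

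In extraembryonic endoderm Flt1 was at 2.01, 6.57 and 18.9 CPM in the Dnmt1 KO embryos and at 0.327 to 1.06 in WT, without overlap (log2 fold change 4.199, SE 0.60, adjusted p = 5.9e-05), where 5.48% of genes were called. With the Y-linked level as a covariate it was not called (log2 fold change 3.54, adjusted p = 0.040), and neither was Cdh5 in erythroid cells (adjusted p = 0.011). The 3 KO embryos differed widely among themselves, and without Dnmt1 KO 3 the log2 fold change was 3.16, in a range of 3.12 to 4.72 over 35 alternatives. The 9 markers of this class summed to 23342 to 28251 CPM in Dnmt1 KO and 33370 to 47596 in WT, those of extraembryonic ectoderm to 18.1 to 23.5 against 35.997 to 78.9, and the endothelial markers to 78.6 to 79.8 against 65.6 to 94.3. Their part in the difference was not tested. The other members lay at no more than 1.70 CPM in any KO embryo of this class. In gut, where 7.67% of genes were called, 0 of 6 members tested were called by edgeR, with 1 at an unadjusted p under 0.05. That gene was Pecam1, at 0.523 to 2.93 CPM against at most 0.598 (log2 fold change 2.51, SE 0.80, adjusted p = 0.027). The 9 markers of gut itself summed to 1227 to 1491 CPM in Dnmt1 KO and 628 to 837 in WT, and the endothelial markers to 119 to 144 against 88.5 to 109.5, and their part was not tested.

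**Figure D5:**
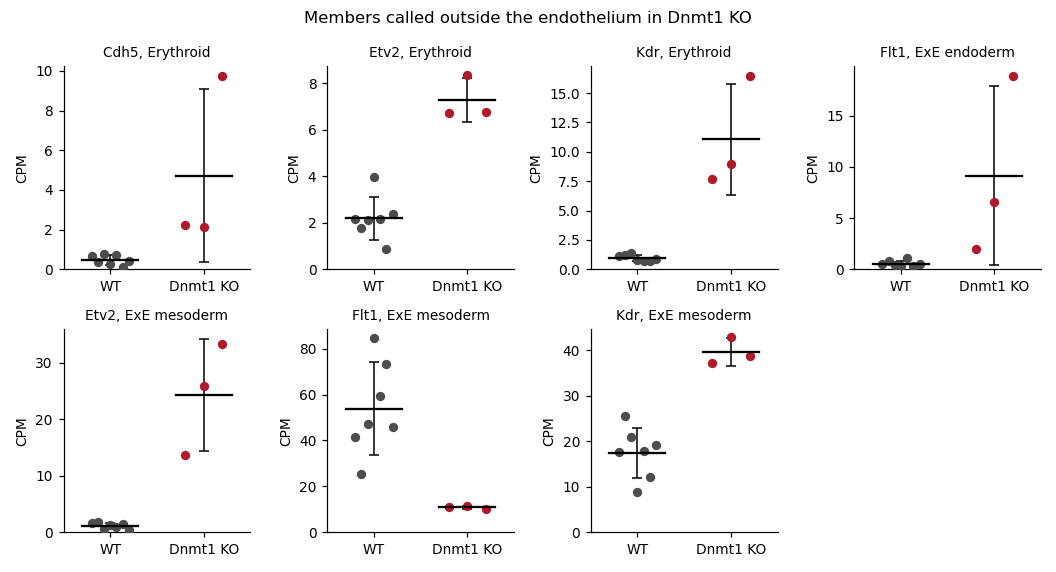
CPM (y axis) of the 7 pairs of gene and class called outside the endothelium, in each WT and Dnmt1 KO embryo (x axis), with a line for the mean and bars for 1 SD. Every Dnmt1 KO point lies above WT in 6 panels and below it for Flt1 in extraembryonic mesoderm.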

How the data were processed

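Single-cell libraries of whole E8.5 embryos were analysed from the deposited counts, which the authors made with Cell Ranger 3.1.0 (17 libraries) or 5.0.0 (Dnmt3b KO 12) as UMI counts per gene and barcode, not normalised. In 4 libraries reads had been aligned to a combined human and mouse reference, and only mouse genes were used. Barcodes with at least 1500 UMIs, at most 30% mitochondrial and 35% ribosomal UMIs were kept. Doublets were removed with Scrublet in scanpy 1.11.5, at an expected 0.8% per 1000 cells. Cells of all groups were clustered together (2500 variable genes without the members and pathway genes, 50 components, 30 neighbours, Leiden resolution 2), which gave 140 clusters, of which 112 were named from marker lists. The scores of the clusters were known when the thresholds for naming them were set. The members, the lists and the comparisons were chosen with earlier results of these data known.

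Counts were summed per embryo and class, for embryos with at least 25 cells of it, and compared in classes with at least 3 embryos per group. All 4 groups entered 1 fit in edgeR 4.0.16 (quasi-likelihood test, TMM normalisation, filterByExpr, Benjamini-Hochberg adjustment over all genes of the class, R 4.3.3). Shares of cells were compared by exact permutation tests with 0.5 cells added. DESeq2 1.42.0 was an alternative. In simulated endothelial counts for Dnmt1 KO (11628 genes), 98% of genes changed 4-fold and 49% of those changed 2-fold were called, with 3 false calls. The changed genes were drawn from those well detected in WT endothelium. Each library is described as a single embryo, so p-values refer to the spread between embryos. The exception is Dnmt3b KO 1 and 2, which share barcodes and were counted as 1 sample in the main fits. Named genes were the 9 members, the targeted methyltransferases, and the called genes of the pathway list with a few uncalled ones for context. Up to 3 genes most like each member were also named, with markers of classes and leading genes of clusters. Gene positions were read from GENCODE vM21 (mm10), which held 31011 of the 31053 gene IDs. Replicate numbers were not used to pair the embryos in the main fits.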

Additional observations from a re-analysis of the deposited data

Results flagged for a closer look

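In groups of 4 to 10 embryos, 4 of 38 sets of member values held an embryo far from the rest, where chance flags about 1 set in 20. All 4 lay in Dnmt3a KO, but Dnmt1 KO and Dnmt3b KO, at n = 3 each, were too small to enter this check. The sets share embryos and cells, so they are not independent. In Dnmt3a KO 14 the endothelial level of Etv2 was 301.1 CPM against 192 to 209 in the other Dnmt3a KO embryos, and that of Flt1 was 183 CPM against 129 to 131. In Dnmt3a KO 2 endothelial Sox18 was at 112 CPM against 199.6 to 209. In Dnmt3a KO 1 Cdh5 summed over the whole embryo was at 13.7 CPM against 8.95 to 9.38.

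Flt1 moved in opposite directions between tissues of the Dnmt1 KO embryos. It lay above every WT embryo in extraembryonic endoderm and in erythroid cells, where it was not called (log2 fold change 2.27, adjusted p = 0.033 in edgeR), and below every WT embryo in extraembryonic mesoderm. The log2 fold changes differed by 6.41 between extraembryonic endoderm and mesoderm and by 4.48 between erythroid cells and extraembryonic mesoderm. These differences between tissues were not tested.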

How the results depend on the processing

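In endothelium of Dnmt1 KO, Lyve1 was called lower in all 36 alternatives (log2 fold changes from -4.89 to -3.62) and Sox18 in 35 (-1.74 to -0.99), the exception being cluster 17 alone, where Cldn5 was called in its place. The count of members called was 2 in each of the 36 and 0 in Dnmt3a KO and Dnmt3b KO, and over the whole embryo it was 2 to 3. The 14 pathway genes called became 9 with the Y-linked level as a covariate, 2 when all sums were thinned to the smallest total, where fewer counts were tested, 1 in cluster 17 alone, and 9 to 15 when single embryos were left out. The 7 pairs of a gene and a class called outside the endothelium became 1 when thinned, 3 at Leiden resolution 1, 17 when each group was clustered on its own and 6 to 7 when single embryos were left out. Clustering within groups also gave 12 such pairs in Dnmt3a KO and 2 in Dnmt3b KO. The cause was not tested. The log2 difference in endothelial share of Dnmt1 KO changed sign to 0.0055 with clusters made within groups and ran from -0.25 to 0.22 without single embryos, and that of Dnmt3a KO ran from -0.22 to 0.0030.

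Replicate numbers were not used to pair the embryos in the main fits. The correlation of same-numbered deviations was -0.23 to 0.27 in endothelium and -0.19 to 0.39 over the whole embryo, each above 0.1 in 3 of 13 pairs. Among pairs with different numbers it was above 0.1 in 5 of 24 and 6 of 24. These pairs take Dnmt3b KO 1 and 2 as separate libraries, and in a group with 2 libraries in the check the deviations mirror each other. With so few libraries per group the check cannot exclude a pairing. With a replicate block, fitted on the libraries that share numbers, 2 members were called in endothelium of Dnmt1 KO, 3 over the whole embryo, 14 pathway genes and 7 pairs outside the endothelium, against 2, 3, 14 and 8 in the same libraries with no replicate block. Cldn5 over the whole embryo was the added call, at -1.01 in both fits. Uncalled log2 fold changes that changed sign under the replicate block were those of Cldn5 in Dnmt3a KO (-0.36 in endothelium, -0.17 with no replicate block in the same libraries, and -0.14 over the whole embryo) and in Dnmt3b KO (-0.13 and -0.54), of Flt1 in Dnmt3b KO (0.073 in endothelium, 0.076 with no replicate block, and 0.042 over the whole embryo) and of Tek in Dnmt3b KO endothelium (0.17, and 0.15 with no replicate block). Cdh5 in Dnmt3b KO was at 0.29 in cluster 17 alone. A further 113 of 2662 single values changed sign within 2 SE of 0.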

Other observations

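Some members were also high in cells too few to compare between groups, given here as UMIs pooled over embryos without a test. The immune-like cells, 67 in WT, held Lyve1 at 147 CPM, Cdh5 at 162, Kdr at 120.4 and Sox18 at 73.4 CPM. The other members were there too, with Pecam1 at 72.3 CPM, Flt1 at 58.1, Cldn5 at 43.3, Tek at 41.2 and Etv2 at 34.8. Whether the class held endothelial cells was not tested. Lyve1 was at 229.5 CPM in 50 such cells of Dnmt3a KO and 135 in 73 of Dnmt3b KO, whereas the 11 immune-like cells of Dnmt1 KO held no Lyve1 UMI among 156721 UMIs. Those 11 cells also held no Flt1 or Cldn5 UMI, while Cdh5 was at 172 CPM and Kdr at 147. Megakaryocyte-like cells, 107 in WT, held Kdr at 37.8 CPM, Etv2 at 34.3 and Pecam1 at 34.03, but Lyve1 at 1.90 and Cldn5 at 1.19 CPM.

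The cells that fitted no class held Etv2 and Kdr well above the other members. Etv2 was at 24.7 CPM in WT and 42.9 in Dnmt1 KO, and Kdr at 36.3 and 33.3 CPM, while Cdh5 was at 0.778 and 4.37 CPM. Of the 1457 such cells of Dnmt1 KO, 951 came from Dnmt1 KO 3, which made up 37.3% of that embryo against 14.96% and 9.40% of the others, so the pooled values lean on 1 embryo. Etv2 was also found in extraembryonic ectoderm, at 8.49 CPM in 116 WT cells and 7.49 CPM in 1145 Dnmt1 KO cells, where Kdr was at 0.653 and 0.882 CPM. Of these, 114 WT cells came from WT 2 and 948 Dnmt1 KO cells from Dnmt1 KO 2, so each value is close to that of a single embryo. The Etv2 level in WT neural ectoderm was 4.27 ± 1.23 CPM (n = 7). In the 851 epiblast-like cells of Dnmt1 KO it was at 6.77 CPM.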
